A study of Mus musculus with 6 samples.

Results

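The genes examined here belong to the Hippo signalling pathway: the effectors Yap1, Wwtr1 and Tead1, the regulators Lats2, Amotl2 and Ajuba, and the target genes Ctgf, Cyr61 and Ankrd1. They were taken by symbol from the platform annotation of the arrays, where Ctgf is listed as Ccn2 and Cyr61 as Ccn1, and they are 9 of 18193 genes named there, with 22 probe sets. RNA came from mouse colorectal cancer cells, the iKAP primary culture #3346, from a genetically engineered mouse tumour model, a background that all samples share. One group stably carried IRF2 and the control group GFP, each delivered in a pLenti6.3 vector, and both were kept in DMEM medium whose additive was free of tetracycline. Each group has 3 arrays. All come from this single culture and no label names separate dishes, so every p-value refers to variation among these particular arrays, which may be technical. The species of the IRF2 sequence, the time after transduction and any doxycycline treatment are not stated in the labels.

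The Hippo pathway is a kinase cascade that restrains the transcriptional coactivators YAP (gene Yap1) and TAZ (gene Wwtr1). When the LATS kinases are active they phosphorylate YAP and TAZ, which are then held in the cytoplasm or degraded; when the cascade is quiet, YAP and TAZ enter the nucleus and bind TEAD transcription factors at target genes such as Ctgf, Cyr61 and Ankrd1. In the gut, YAP and TAZ are known for their part in epithelial regeneration after injury and in tumour growth after loss of Apc. Much of this control acts on the proteins, which these arrays do not measure.

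Values are linear probe set intensities as deposited, and a change is a log2 fold change (labelled IRF2 over GFP) given with the standard error (SE) that limma estimated. A gene is said to have risen or fallen where the Benjamini-Hochberg adjusted p over all genes tested was under 0.05. The probe set named to Irf2 read 62.6 ± 2.53 with GFP and 36.3 ± 0.934 under the IRF2 label (SD, n = 3 each), which goes against the label, so the second group is called "labelled IRF2" throughout; which part of the transcript it reads is not known here, and a direction below is that between the labelled groups. Array medians lay between 18.1 and 18.7, but arrays may have been scaled to each other before deposit, so near-equal medians are no check. On the log2 scale, arrays of a group correlated with each other at 0.998 or above, and no array stood apart by that measure. The epithelial keratin genes Krt8, Krt18 and Krt19 were bright (means from 3533 to 5421), and of the intestinal markers Tspan8 (1548 and 1720), Cdh17 (279 and 188) and Cdx2 (93.5 and 86.0) lay above the intensity filter of 11.3 and Vil1, Cdx1 and Krt20 under it. Ptprc (immune cells; 4.48 and 4.96), Pecam1 (endothelium; 5.48 and 5.25) and Myh11 (smooth muscle; 5.602 and 5.37) had group means no higher than the bacterial tryptophan controls reached (3.69 to 6.52), while other markers of these types lay above the filter, as given with the marker lists at the end.

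All 9 genes passed the intensity filter. Of these, 4 rose (Ankrd1, Amotl2, Cyr61 and Yap1), 1 fell (Lats2) and 4 did not pass the test (Tead1, Wwtr1, Ctgf and Ajuba). The share called, 55.6%, stands against 36.3% of all 12795 genes tested; 16.5% of all genes were called higher and 19.8% lower. The changes were small. The largest, in Ankrd1, was 0.25 on the log2 scale (SE 0.05), or 1.19-fold, and 14.3% of all tested genes differed by at least as much. The median change over the 9 genes was 0.09, beside -0.00070 over all genes tested, and the median size without sign was 0.11 beside 0.09. With the brightest probe set standing for each gene, the groups were fully separated in all 9 genes, beside 46.2% of all genes tested.

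**Figure D1:**
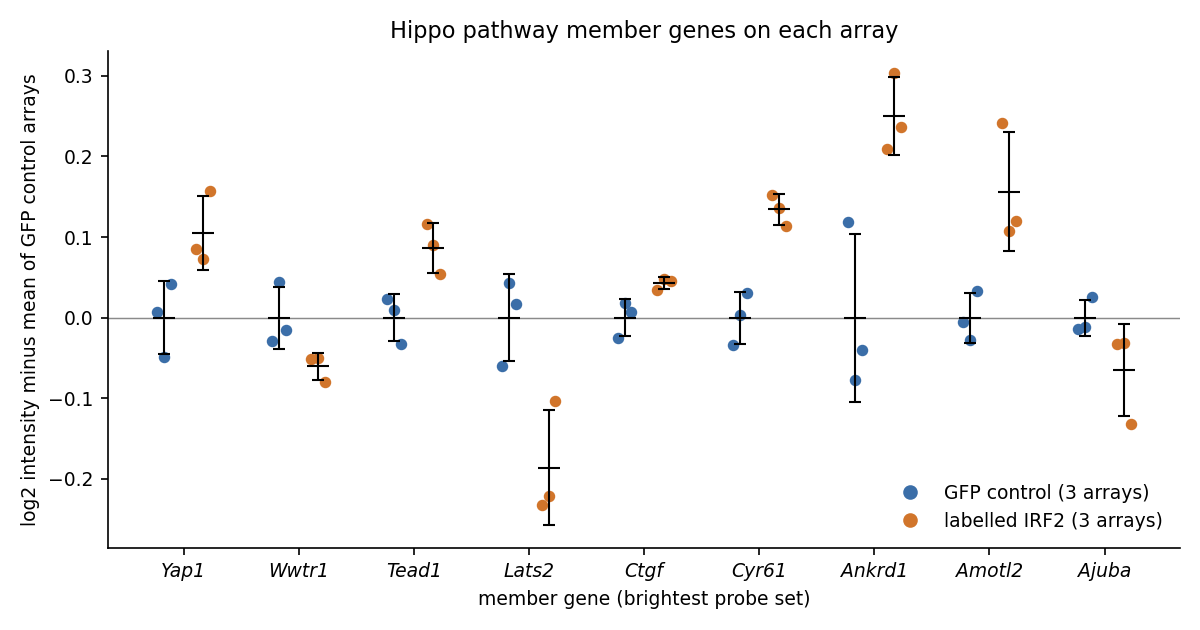
Log2 intensity of the brightest probe set of each gene on each of the 6 arrays, after subtraction of the mean of the GFP control arrays; horizontal bars and whiskers are the mean and SD of 3 arrays. The arrays labelled IRF2 lie above all GFP control arrays for Yap1, Tead1, Ctgf, Cyr61, Ankrd1 and Amotl2 and below them for Wwtr1, Lats2 and Ajuba.

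The coactivators came first. Yap1 read 669, 643 and 685 with GFP and 706, 699.8 and 742 under the IRF2 label. All arrays labelled IRF2 were above all control arrays, and Yap1 rose by 0.11 (SE 0.03, limma adjusted p = 0.0142). The call was lost without GFP replicate 2 (0.08, adjusted p = 0.0602), without IRF2 replicate 3 (0.08, adjusted p = 0.0732) and without the intensity trend (adjusted p = 0.093); over 14 alternatives the adjusted p ran from 0.0043 to 0.093. Its other probe set read 248.8 to 261.2 and 261.1 to 270.0; the groups overlapped, and the change of 0.06 (SE 0.04) did not pass.

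Wwtr1, which encodes the YAP paralogue TAZ, read 859.5, 904 and 867 with GFP and 846, 846 and 829 under the IRF2 label. The labelled IRF2 arrays were the lower ones without overlap, but the change of -0.06 (SE 0.03, limma adjusted p = 0.0839) did not pass. All 3 of its probe sets had a negative change. The dimmest of them, at 236, 250.4 and 241 against 224, 209.7 and 214, fell by 0.17 (SE 0.04) with an adjusted p of 0.00532 in the limma fit of all probe sets. The mean of the 3 probe sets fell by 0.10 (adjusted p = 0.00811, in a range of 0.00811 to 0.287 over 14 alternatives). The changes of Yap1 and Wwtr1 thus had opposite signs. Their log2 ratio within each array differed between the groups by 0.17, without overlap, and the exact permutation test (two-sided, 3 arrays against 3) gave p = 0.1, the smallest it allows, or 0.133 after Benjamini-Hochberg adjustment over the 4 gene pairs compared in this way.

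Tead1, the DNA-binding partner among the genes examined, read 258, 256 and 248 with GFP and 275, 270.3 and 264 under the IRF2 label. The groups did not overlap, and the difference of 0.09 (SE 0.03, limma adjusted p = 0.062) missed the threshold, though it passed under quantile normalization (0.10, adjusted p = 0.0368, in a range of 0.0368 to 0.399 over 14 alternatives). Its second, dim probe set had group means of 24.0 and 25.2 and overlapping groups. The other TEAD genes differed in direction. Tead2 rose from 132 ± 4.63 to 158 ± 11.3 (0.25, SE 0.05, limma adjusted p = 0.00144), and Tead4 fell from 60.1 ± 2.51 to 50.7 ± 2.87 (-0.25, SE 0.07, limma adjusted p = 0.00728; SD, n = 3 each), or by 0.15 in the mean of its probe sets. Tead3 differed by 0.10 (SE 0.07) and did not pass; without GFP replicate 3 the value was 0.03. Of the vestigial-like cofactors, which compete with YAP for TEAD, Vgll4 differed by 0.03 (SE 0.04), a change whose sign turned without either of 2 arrays, and Vgll1, Vgll2 and Vgll3 lay under the intensity filter.

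Among the kinases, Lats2, which phosphorylates YAP and TAZ and is itself a YAP target, read 113, 122 and 119.6 with GFP and 101, 101 and 110.0 under the IRF2 label. No array labelled IRF2 reached the lowest control array, and Lats2 fell by 0.19 (SE 0.05, limma adjusted p = 0.0105). It has 6 probe sets. The 4 above the filter all had negative changes, from -0.21 to -0.05, and 2 of them fell. The second that fell read 46.7, 50.2 and 46.7 against 37.8, 42.8 and 43.5 (-0.21, SE 0.07, adjusted p = 0.0441 in the limma fit of all probe sets). That call was lost in 7 of 13 alternatives: without the filter (0.06), without the intensity trend (0.0583) and without each array in turn except IRF2 replicate 3, with an adjusted p of up to 0.178 and a lowest of 0.0334. The call of the brightest probe set in the same fit was lost in 4 of 13, without GFP replicate 2, GFP replicate 3, IRF2 replicate 1 or IRF2 replicate 2 (up to 0.0631). The call of the gene was lost in the mean of all 6 probe sets (-0.14, adjusted p = 0.0723, in a range of 0.0055 to 0.0723 over 14 alternatives), which takes in 2 that lie under the filter. A further probe set annotated to both Xpo4 and Lats2 was left out.

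The rest of the core cascade moved little. Sav1, the scaffold of the upstream MST kinases, rose by 0.09 (SE 0.03, limma adjusted p = 0.0209; lowest 0.0073), but not when its probe sets were averaged (0.06, limma adjusted p = 0.0964, the highest over 14 alternatives), without the intensity trend (adjusted p = 0.079), without GFP replicate 1 (0.07, adjusted p = 0.0899) and without IRF2 replicate 3 (0.08, adjusted p = 0.0594). Lats1 (-0.03, SE 0.03), the MST1 gene Stk4 (-0.05, SE 0.03), the LATS activators Mob1a (0.01, SE 0.03) and Mob1b (0.11, SE 0.05; 0.05 without IRF2 replicate 2) and the merlin gene Nf2 (0.03, SE 0.04) did not pass. No probe set was named to the MST2 gene Stk3.

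Amotl2, an angiomotin family scaffold that binds YAP at junctions and is also a YAP target, read 321, 316 and 329 with GFP and 380.4, 347 and 349.8 under the IRF2 label. The 3 arrays labelled IRF2 were all higher, the first of them by most, and Amotl2 rose by 0.16 (SE 0.04, limma adjusted p = 0.00424). Its paralogue Amotl1 rose further, from 370 ± 9.9 to 466 ± 15.96 (SD, n = 3 each; 0.33, SE 0.03, limma adjusted p = 1.50e-06), while Amot, the founding member of the family, fell by 0.14 (SE 0.05, limma adjusted p = 0.0427). Amot was named after its values were seen, and its call was lost without the intensity filter (adjusted p = 0.0545). Ajuba, a LIM protein that inhibits LATS kinases, read 279, 280.1 and 287 against 276, 276 and 258; the groups did not overlap, but the change of -0.06 (SE 0.04, limma adjusted p = 0.19; -0.03 without IRF2 replicate 3) did not pass.

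Of 31 tested genes of a wider list of Hippo kinases and upstream inputs, which holds Lats2, Amotl2 and Ajuba, 7 rose, 6 fell and 18 did not pass. The share called was 41.9%, beside 36.3% of all genes, and the median change was 0.01. Besides the angiomotin genes, Frmd6, a FERM-domain protein upstream of the cascade, rose from 488 ± 6.61 to 587 ± 15.3 (SD, n = 3 each; 0.27, SE 0.03, limma adjusted p = 3.10e-06), the polarity scaffold Dlg5 rose by 0.21 (SE 0.04), and the kinase gene Mink1, also known as Map4k6, rose by 0.20 (SE 0.04). Fjx1, the four-jointed homologue that modifies Fat cadherins, fell by 0.26 (SE 0.06), and the casein kinase gene Csnk1d by 0.12 (SE 0.03, limma adjusted p = 0.00544; 0.0726 without the intensity trend, in a range of 0.0016 to 0.0726 over 14 alternatives).

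**Figure D2:**
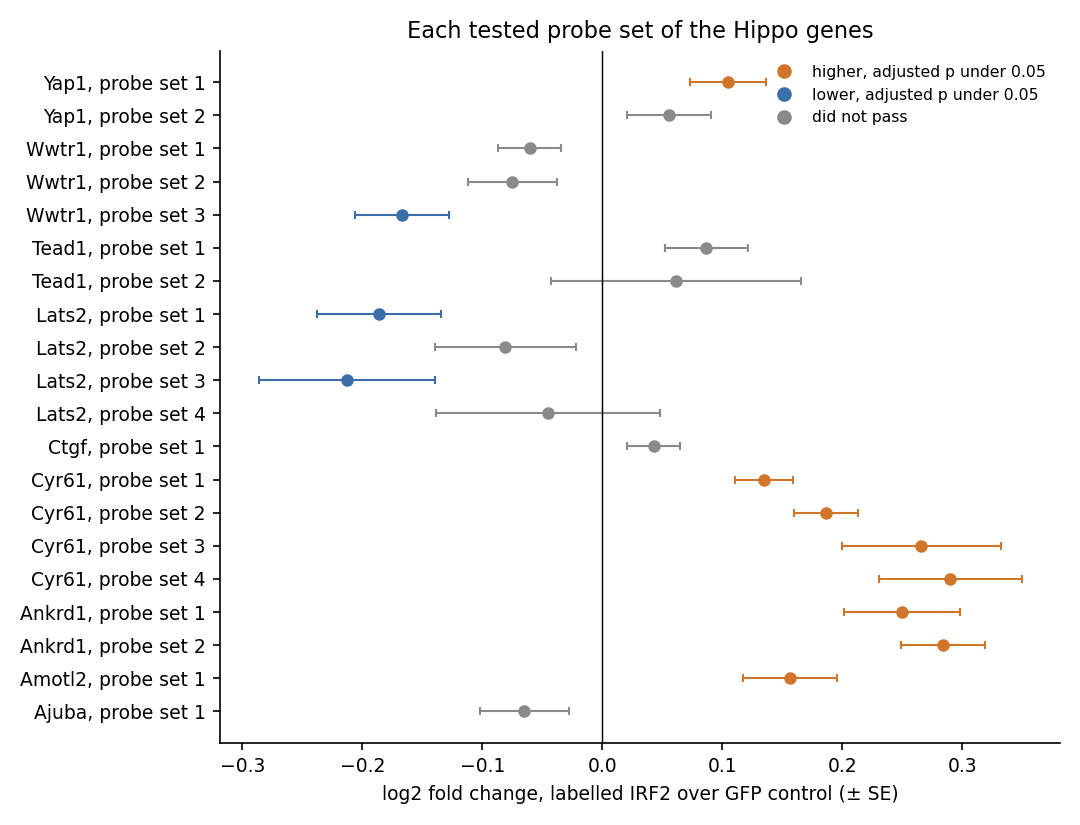
Log2 fold change (labelled IRF2 over GFP control) with its SE for each of the 20 probe sets above the intensity filter, numbered within a gene from the brightest down; colour gives the call in the fit of all probe sets. All 4 probe sets of Cyr61 and both of Ankrd1 rose, those of Lats2 and Wwtr1 all lie below 0, and the single probe set of Ctgf lies near 0.

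Ankrd1, Cyr61 and Ctgf, the targets most often used to read out YAP, differed in their calls: the first pair rose and Ctgf did not pass. Over the 20 tested probe sets of the 9 genes, 8 rose and 3 fell, beside 28.7% of all 27022 probe sets tested (13% higher and 15.7% lower), and 6 of the 8 were those of Cyr61 and Ankrd1. The groups did not overlap in 15 of the 20, beside 40.5% of all probe sets.

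Ankrd1, a cardiac and stress-induced ankyrin repeat protein widely used as a readout of YAP, read 267, 233 and 239 with GFP and 285, 304 and 290.2 under the IRF2 label. Every array labelled IRF2 was above the highest control array, and Ankrd1 rose by 0.25 (SE 0.05, limma adjusted p = 6.00e-04). Its other probe set was tighter, at 186, 187 and 191 against 229, 229.8 and 227, and rose by 0.28 (SE 0.04, adjusted p = 3.64e-05 in the fit of all probe sets).

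Cyr61 encodes a secreted matricellular protein of the CCN family that binds integrins. It read 1157, 1187 and 1210.3 with GFP and 1317, 1302 and 1282 under the IRF2 label, without overlap, and rose by 0.13 (SE 0.02, limma adjusted p = 3.48e-04). The second probe set went from 751, 754 and 728 to 866, 836 and 839 (0.19, SE 0.03). The 2 dimmer probe sets, at 119.5, 104 and 108 against 146, 127 and 126 and at 90.7, 91.7 and 86.5 against 119.6, 106 and 104, gave 0.27 (SE 0.07) and 0.29 (SE 0.06). All 4 probe sets rose with groups that did not overlap, and in their mean Cyr61 came to 0.22. The probe sets share the arrays and are not replicates, and the third of them lost its call without the intensity trend (adjusted p = 0.0535).

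Ctgf, another CCN family gene and a secreted regulator of matrix deposition, read 1153, 1188 and 1178 with GFP and 1201, 1213 and 1210.3 under the IRF2 label. The labelled IRF2 arrays were again the higher ones without overlap, but the change was 0.04 (SE 0.02, limma adjusted p = 0.155), 74.9% of all genes differed by at least as much, and Ctgf did not pass under any alternative run (lowest adjusted p 0.0664). The change of Cyr61 exceeded that of Ctgf by 0.09 and the change of Ankrd1 exceeded it by 0.21, with log2 ratios within the array that did not overlap between the groups. Each exact permutation test (two-sided) gave p = 0.1, the smallest that 3 arrays against 3 allow, and 0.133 after adjustment over the 4 pairs. Ankrd1 against Cyr61 differed by 0.12 with overlapping ratios (exact permutation p = 0.3).

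Promoter sequences were examined for the core TEAD motif because several of these genes are known TEAD targets. RefSeq promoter windows (GRCm38.p6) were found for 7 of the 9 genes; Ctgf and Tead1 had no entry. In the 250 bases before each start, GGAATG or its reverse complement CATTCC was present for 6 of the 7 genes (Ajuba, Amotl2, Ankrd1, Cyr61, Wwtr1 and Yap1), and for 14.4% of all 27025 genes in the table. These 6 include genes that rose and genes that did not pass. Some windows precede a start inside the annotated gene: those of Amotl2, Yap1 and Lats2, and 1 of Wwtr1, overlap the gene itself. The Amotl2 match lies wholly inside the annotated gene. The AP-1 motif TGANTCA was present in 0 of the 7 (7.82% of all genes) and an interferon-response type motif (GAAA, a pair of free bases, GAAA), all searched on both strands, in 1, Lats2 (3.46% of all genes). The Lats2 match lies in the window chr14:57734419-57734668, inside the annotated gene. The Lats2 window at the outer start (chr14:57746124-57746373) holds none. A match is not a site shown to be bound, and no binding was measured. Shown 5′ to 3′ on the gene's own strand, with the TEAD-type matches in capitals, are the windows of the 2 target genes that rose with more than 1 probe set, Ankrd1 (chr19:36119845-36120094, minus strand) and Cyr61 (chr3:145649986-145650235, minus strand).
Ankrd1: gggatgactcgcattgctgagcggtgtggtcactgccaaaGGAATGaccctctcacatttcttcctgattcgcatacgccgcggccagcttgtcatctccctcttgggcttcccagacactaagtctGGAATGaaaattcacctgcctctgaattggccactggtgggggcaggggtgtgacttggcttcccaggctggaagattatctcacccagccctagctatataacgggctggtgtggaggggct
Cyr61: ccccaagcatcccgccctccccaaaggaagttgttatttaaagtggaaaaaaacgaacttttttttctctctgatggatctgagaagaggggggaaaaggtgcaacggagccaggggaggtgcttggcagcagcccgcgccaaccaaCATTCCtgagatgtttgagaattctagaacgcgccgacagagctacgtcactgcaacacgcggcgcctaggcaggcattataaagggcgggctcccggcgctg

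Ankrd1 holds 2 matches, whose first bases lie 210 and 123 bases before the start, and Cyr61 holds 1, on the reverse strand, at 103 bases. To compare the flanks, 30 bases around the match follow for Amotl2 (chr9:102717727-102717756, plus strand), which rose, for the coactivator genes Yap1 (chr9:8004720-8004749, minus strand) and Wwtr1 (chr3:57576029-57576058, minus strand), and for the nearer of the 2 matches of Ajuba (chr14:54577808-54577837, minus strand), which did not pass.
Amotl2: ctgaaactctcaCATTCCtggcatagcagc
Yap1: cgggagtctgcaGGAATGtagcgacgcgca
Wwtr1: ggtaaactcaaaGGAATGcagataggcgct
Ajuba: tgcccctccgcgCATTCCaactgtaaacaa

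A list of 22 YAP/TEAD target genes, of which Cyr61, Ctgf, Ankrd1, Amotl2 and Lats2 are members, was read next. All 22 were above the filter; 11 rose, 4 fell and 7 did not pass, a share called of 68.2% beside 36.3% of all genes, with a median change of 0.12. Among the 17 others, 8 rose and 3 fell, with a median of 0.10 beside -0.00070 over all genes. The largest rises were larger than any among the 9 genes. Ccdc80, a secreted matrix-associated protein, rose from 354 ± 9.53 to 614 ± 2.16 (0.79, SE 0.03, limma adjusted p = 3.05e-11). Tgfb2, a TGF-beta ligand, rose from 43.5 ± 3.47 to 69.0 ± 3.75 (0.67, SE 0.07, limma adjusted p = 3.20e-06), and the receptor tyrosine kinase gene Axl from 1031 ± 37.9 to 1506 ± 7.45 (0.55, SE 0.03, limma adjusted p = 5.76e-10; SD, n = 3 each). Averaged over its probe sets, the rise of Axl was 0.29. Crim1, a membrane protein that binds growth factors of the BMP family, rose by 0.36 (SE 0.05) and the Rac activator gene Dock5 by 0.20 (SE 0.03).

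The falls in that list were those of Igfbp3, Fjx1, Foxf2 and Lats2. Igfbp3, which binds insulin-like growth factors, went from 367 ± 9.19 to 228 ± 7.2 (SD, n = 3 each; -0.68, SE 0.04, limma adjusted p = 1.37e-09). The forkhead gene Foxf2, named here to complete the count after its values were seen, fell by 0.20 (SE 0.07, limma adjusted p = 0.0375), a call lost without the intensity filter (0.0501), where 3 of the list fell. The coagulation factor receptor gene F3 was bright and differed by 0.03 (SE 0.04, limma adjusted p = 0.633); it too was chosen after its values were seen. Lats2 was thus among 4 listed targets that fell while Ankrd1, Cyr61 and Amotl2 were among 11 that rose.

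**Figure D3:**
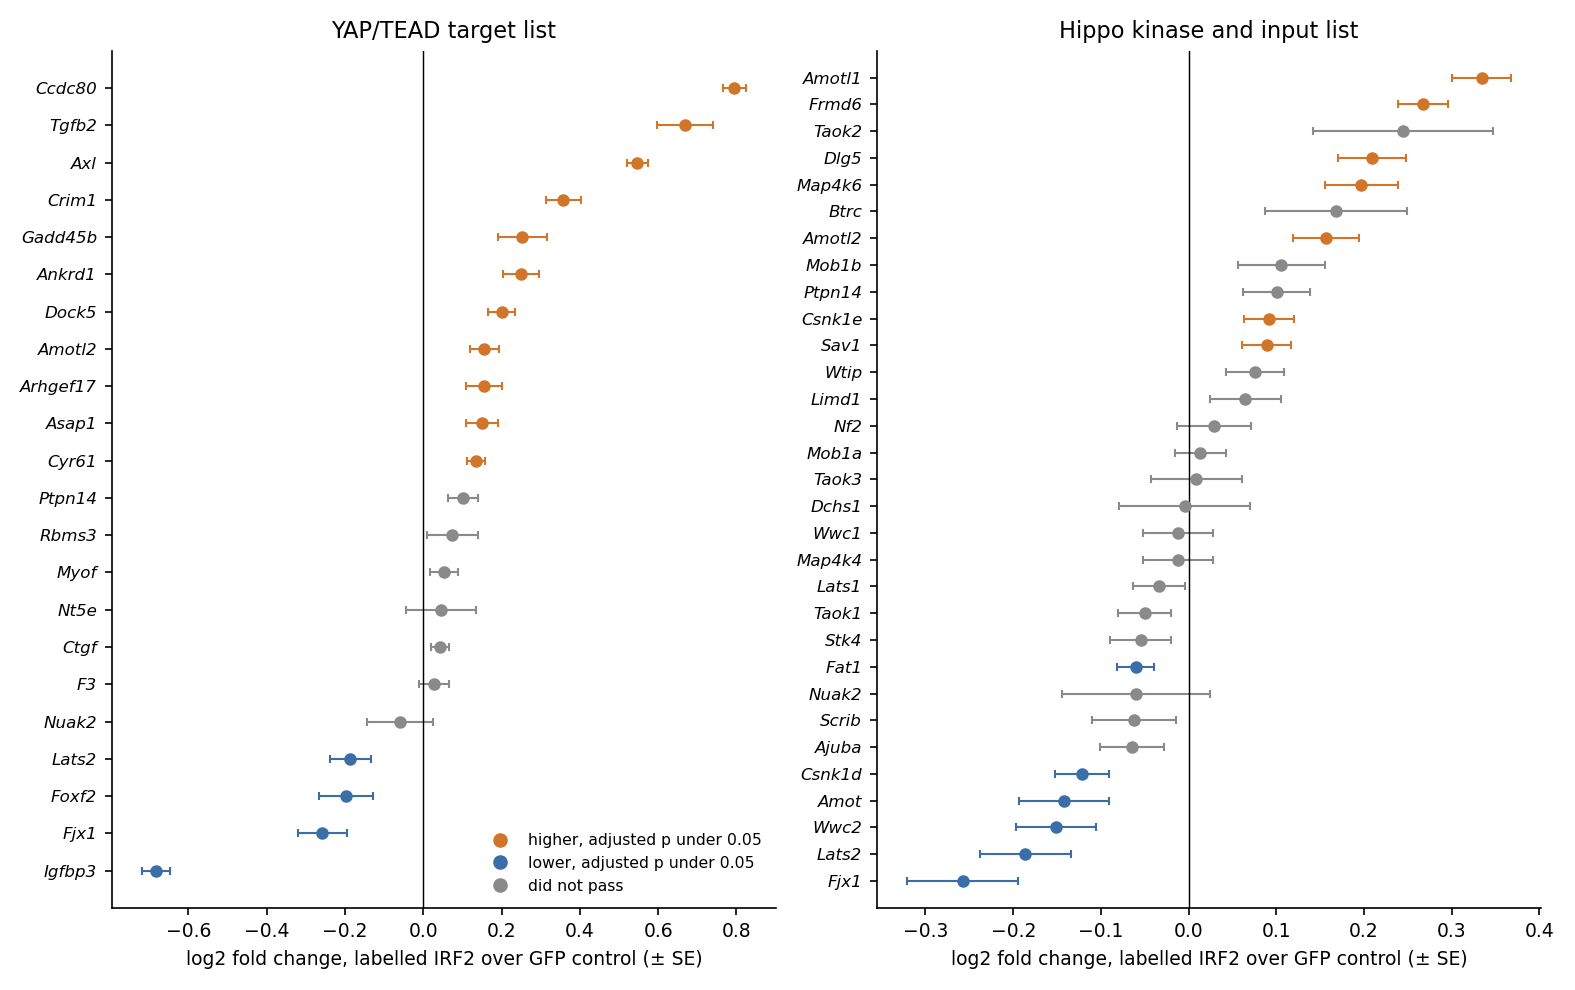
Log2 fold change (labelled IRF2 over GFP control) with its SE for the 22 genes of the YAP/TEAD target list and the 31 tested genes of the Hippo kinase and input list, ordered by value; 5 genes stand in both. In the target list 11 rose and 4 fell, and in the kinase and input list 7 rose and 6 fell; the horizontal scales differ.

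The CCN family, to which Cyr61 and Ctgf belong, had 5 genes above the filter, of which 3 rose and 2 did not pass, a share called of 60% beside 36.3% of all genes (16.5% higher). Nov (Ccn3), a CCN protein linked to growth restraint, rose from 333 ± 11.3 to 428 ± 1.87 (0.36, SE 0.03, limma adjusted p = 4.09e-07). Wisp2 (Ccn5), which lacks the C-terminal domain of its relatives, rose from 40.8 ± 4.43 to 61.9 ± 1.57 (0.61, SE 0.08, limma adjusted p = 1.95e-05; SD, n = 3 each). Both changes were larger than that of Cyr61 on the same scale; the difference was not tested. Wisp1 (Ccn4) differed by 0.12 (SE 0.07) and did not pass, and Wisp3 (Ccn6) lay under the filter.

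**Figure D4:**
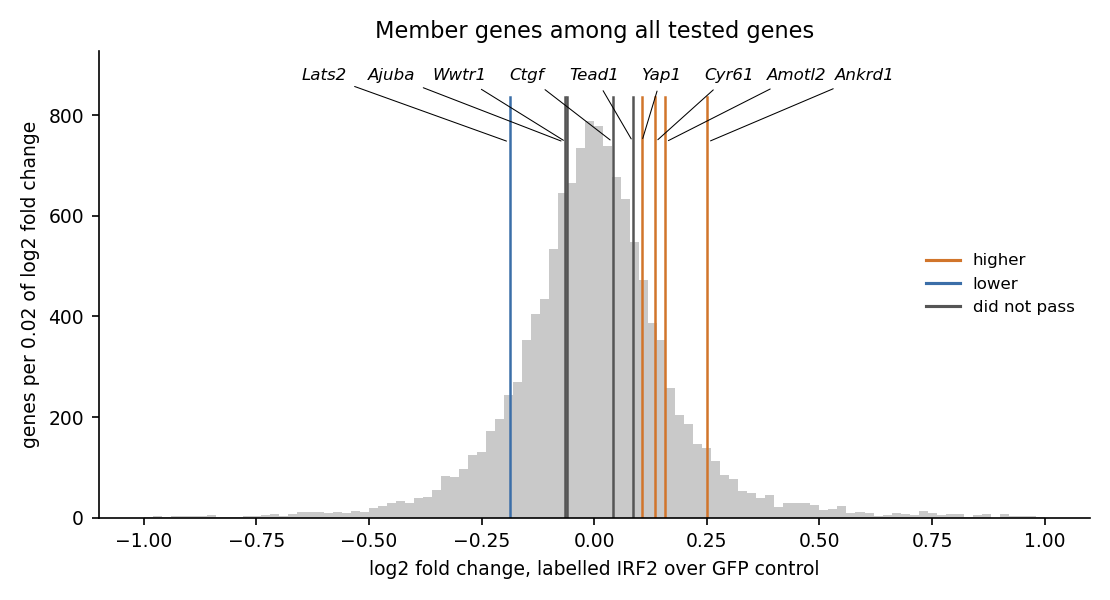
Histogram of the log2 fold change (labelled IRF2 over GFP control) of 12702 of the 12795 tested genes in bins of 0.02, with 93 genes beyond ±1 not drawn; vertical lines mark the 9 Hippo pathway genes. Ankrd1 is the farthest on the positive side at 0.25 and Lats2 the farthest on the negative side at -0.19, both within the body of the distribution.

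The genes whose values over the 6 arrays lay closest to those of the 2 most changed genes, as the root mean square difference of log2 values each centred on its own mean, were Aif1l (0.0228), Tle2 (0.0247) and Pros1 (0.0287) for Ankrd1 and Cracr2b (0.0195), Ccm2 (0.02) and Kctd9 (0.0203) for Lats2. Their likeness to Ankrd1 or Lats2 fixes the direction and size of their changes, which are therefore not given as results.

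Marker levels of epithelial and of other cell types moved in part with the groups. A list of 5 smooth muscle markers, of which 2 lay above the filter, summed to 129 to 143 with GFP and 158 to 165 under the IRF2 label. Acta2, which rose by 0.37 (SE 0.06), made up most of it, and Myh11, Cnn1 and Actg2 lay under the filter. In the mean of its probe sets the change of Acta2 was 0.11 and did not pass (limma adjusted p = 0.229). The 12 epithelial markers summed to 16119 to 16239 and 17707 to 17897, and Krt8, Krt18 and Krt19 made up most of these sums. Of the 9 above the filter, 3 rose and 3 fell, a share called of 66.7% beside 36.3% of all genes. Krt8 (0.50, SE 0.02), Tspan8 (0.15, SE 0.02) and Krt18 (0.08, SE 0.02) rose. The adhesion genes Cdh1 (-0.75, SE 0.04) and Epcam (-0.81, SE 0.11) fell, as did Cdh17 (-0.57, SE 0.03). The changes of marker genes given here were chosen after their values were seen. The 9 fibroblast markers summed to 155.1 to 164 and 161 to 169, the 8 measured immune markers to 267 to 301 and 295 to 307, and the 6 endothelial markers to 108 to 118 and 100.1 to 111, and in each of these 3 the ranges of the groups overlapped. Single markers within them did change: of the fibroblast list, in which Col1a1 read 7.04 and 8.35, Pdgfra rose by 0.70 (SE 0.10) and Pdgfrb fell by 0.40 (SE 0.08), of the immune list Cd14 rose by 0.18 (SE 0.06, limma adjusted p = 0.035), with Cd68 at 77.6 and 77.95, and of the endothelial list Egfl7 fell by 0.22 (SE 0.07, limma adjusted p = 0.0315). The part of these levels in the changes of the Hippo genes was not tested, and in RNA from whole cultures fewer cells of a type and less RNA per cell cannot be told apart.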

How the data were processed

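The authors deposited linear probe set intensities for 45101 probe sets on 6 arrays, grouped here by sample title. The submitters' processing notes name MAS5 without a version or role, and how arrays were scaled is not stated in the labels; the values were used on that scale as they stood. Probe sets took their names from GEO's platform annotation: of 45037 that are not controls, 34945 had 1 gene symbol, 932 had several and 9160 had none. Of 122 listed genes, 119 were matched, some through synonyms in a RefSeq table.

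The probe set with the highest mean log2 intensity stood for each gene, and genes at or under the 40th percentile of non-control probe sets (11.3) were left out, which left 12795. limma 3.58.1 (R 4.3.3) was run on log2 values with group as the only term, 4 residual degrees of freedom and moderated variances that follow intensity. Tests were two-sided. A second fit covered 27022 probe sets. The code was run on simulated data. The simulated spread was changed after first results were seen, so no value from that run is used here.

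The Hippo genes, other lists and tests were chosen with earlier results of these data known. By rule the text names all probe sets of the 9 genes, all genes of the TEAD and cofactor list and of the CCN list, Stk3, Stk4, Sav1, Lats1, Mob1a, Mob1b and Nf2, the 8 genes of smallest p in each pathway list, and the 3 nearest patterns of the 2 most changed genes; genes named after their values were seen are marked so. Alternatives were other normalization, an added constant, other filters, averaged probe sets, other variance models, a replicate block and each array left out. Deviations from the group mean correlated at 0.07, -0.08 and -0.00077 between same-numbered arrays, and at -0.11 to 0.11 between arrays of different number. These values gave no sign of pairing by number but cannot exclude it.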

Additional observations from a re-analysis of the deposited data

How the results depend on the processing

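The precision is limited by 3 arrays a group. Over 10 counts and all alternatives listed at the start, 132 of 138 recomputed counts were within 1.5 times the reported one. The exceptions were the fallen genes of the target list in the mean of probe sets (2 in place of 4), the fallen genes of the kinase and input list without the intensity trend (2 in place of 6), the risen probe sets of the 9 genes without that trend (5 in place of 8), and their fallen probe sets, which ran from 1 to 3 when each array was left out, with 1 after removal of GFP replicate 3, IRF2 replicate 1 or IRF2 replicate 2. For the 63 single genes and probe sets, 825 of 860 values kept direction and side of the threshold, 27 lost the call, 3 gained it and 5 turned sign. None of the 5 was called: when each array was left out, Vgll4 ran from -0.0063 to 0.053, Mob1a from -0.014 to 0.029, the dim Tead1 probe set from -0.041 to 0.18 and the dimmest tested Lats2 probe set from -0.12 to 0.0071; Vgll4 gave -0.0063 after removal of GFP replicate 2 and -0.0031 after removal of IRF2 replicate 1. In the fit of all probe sets the Amotl2 probe set lost its call without the intensity trend (adjusted p = 0.0584). Cyr61, Ankrd1 and Amotl2 kept their calls as genes in every alternative. With the replicate number as a block, 2141 genes were higher and 2537 lower, against 2111 and 2531, and the counts among the 9 genes were 4 and 1 as before; the arrays share only a number, so this block has no basis in the labels. The cause of these shifts was not tested.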

Other observations

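Ankrd1, Cyr61 and Ctgf are also known targets of serum response factor (SRF) and its actin-sensing coactivators MRTF-A and MRTF-B, so a list of these factors and of cytoskeletal genes was read beside them. Of 16 genes above the filter, 9 rose and 7 did not pass (share called 56.2% beside 36.3% of all genes), with a median change of 0.12. The MRTF-A gene Mkl1 rose from 59.96 ± 2.96 to 87.3 ± 3.03 (0.54, SE 0.06, limma adjusted p = 3.45e-06), whereas Srf itself, chosen after its values were seen, differed by 0.02 (SE 0.05, limma adjusted p = 0.752). The actin-binding genes Tpm2 (0.46, SE 0.02), Myh9 (0.36, SE 0.02), Flna (0.34, SE 0.03) and Cnn2 (0.28, SE 0.02) rose, Tpm1 by 0.13 (SE 0.02). Averaged over its probe sets, the rise of Tpm2 was 0.32. Tagln (25.2 with GFP and 26.6 under the IRF2 label), Tpm4, Fhl1, Fhl2 and Zyx did not pass. Actg2, Cnn1 and Myl9 lay under the filter. These genes without a call were named after their values were seen. Cnn2 went from 1510.4 ± 3.52 to 1830 ± 12.4 and Myh9 from 3466 ± 72.9 to 4435 ± 74.1 (SD, n = 3 each). The smooth muscle actin gene Acta2 rose by 0.37 (SE 0.06) and the MRTF-B gene Mkl2 by 0.14 (SE 0.04), and both calls were lost in the mean of their probe sets (0.11, adjusted p = 0.229, and 0.04, adjusted p = 0.559, the highest over 14 alternatives; lowest 1.18e-05 and 0.0028). Actb, also chosen after its values were seen, differed by 0.02 (SE 0.02) and did not pass. Any part of SRF or the MRTFs in the values of Ankrd1, Cyr61 and Ctgf was not tested. With these arrays it cannot be told apart from that of YAP and TEAD.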
